A study of Mus musculus with 8 samples.

Results

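The 10 genes described here, all of reactive oxygen defence and mitochondrial uncoupling, were examined in maps of H3K27ac, the acetylated form of histone H3 that marks promoters and enhancers in use. They were chosen by name, by a rule that uses no measured value, though with earlier results of these data known. The genes are Sod1, Sod2, Cat, Gpx1, Gpx4, Nfe2l2, Keap1, Ucp1, Ucp2 and Ucp3. Each was taken as its mm10 gene body with 20 kb on each side. These are 10 of the 21627 protein-coding genes on the 20 chromosomes present in the peak lists. The cells were primary CD8+ T cells of C57BL/6 mice, purified from lymph node and spleen, stimulated through CD3 and CD28, and kept for 48 h with EnPGC-1, which the labels class among PIPs, or with the vehicle DMSO. The question was how genome-wide acetylation differed with the compound. The 8 samples were 2 H3K27ac samples from EnPGC-1-treated cells, 2 from DMSO-treated cells, 1 input from EnPGC-1-treated cells, 1 input from DMSO-treated cells and 2 IgG samples from DMSO-treated cells. Both treatments share the stimulation, so no unstimulated state is represented. The number of mice, their age and any pooling of cells are not stated in the labels. The values are 1 list of peaks per treatment, with no value per sample, which leaves no spread between replicates and allows no test of the treatments. Sequencing depth is unknown here, and the longer EnPGC-1 list covers more bases at most genes. In bulk cells, a mark in more cells and a stronger mark per cell cannot be told apart.

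Cells that respire produce superoxide, which superoxide dismutases turn into hydrogen peroxide, and catalase and glutathione peroxidases then break the peroxide down. The transcription factor NRF2, encoded by Nfe2l2, switches on many antioxidant genes when its inhibitor KEAP1 releases it. Uncoupling proteins are carriers of the inner mitochondrial membrane, of which UCP1 lets protons return without making ATP and heats brown fat. Activated T cells raise their respiration and need both peroxide signals and protection from excess peroxide.

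Promoter sequences are shown for the 4 genes whose start was listed after EnPGC-1 alone, Sod2, Nfe2l2, Ucp1 and Ucp2, and for Sod1, whose window lay in a DMSO interval. They are RefSeq sequences of GRCm38.p6, whose coordinates equal those of mm10, and each holds 250 bases before the annotated start and 50 from it. All 10 genes matched a promoter. The Sod1 window, chr16:90220512-90220811 on the plus strand, lay wholly inside a DMSO interval and held no base of an EnPGC-1 interval. The Sod2 window, chr17:13007589-13007888 on the plus strand, and the Ucp1 window, chr8:83290098-83290397 on the plus strand, lay wholly inside an EnPGC-1 interval and held no base of a DMSO interval. The Nfe2l2 window, chr2:75704614-75704913 on the minus strand, and the Ucp2 window, chr7:100493108-100493407 on the plus strand, lay at the edge of EnPGC-1 intervals that began 79 and 14 bases after the start, so that the Nfe2l2 window held 0 and the Ucp2 window 36 EnPGC-1 bases. Neither held a DMSO base. Of the windows not shown, Ucp3 held 269 EnPGC-1 and 0 DMSO bases, Gpx4 181 and 0, and Gpx1 0 and 24, and those of Cat and Keap1 held 0 of both. Capitals mark matches to the antioxidant response element core TGACNNNGC, the sequence class that NRF2 with small MAF proteins is known to bind, and to the GC box GGGCGG, on either strand. Each line runs 5′ to 3′ on the strand of the gene.
Sod1: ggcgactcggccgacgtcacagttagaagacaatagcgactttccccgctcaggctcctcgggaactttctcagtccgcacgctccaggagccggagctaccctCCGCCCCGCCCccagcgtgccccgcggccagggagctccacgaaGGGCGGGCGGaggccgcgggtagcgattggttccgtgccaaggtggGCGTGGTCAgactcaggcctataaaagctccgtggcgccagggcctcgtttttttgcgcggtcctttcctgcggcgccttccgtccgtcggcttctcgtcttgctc
Sod2: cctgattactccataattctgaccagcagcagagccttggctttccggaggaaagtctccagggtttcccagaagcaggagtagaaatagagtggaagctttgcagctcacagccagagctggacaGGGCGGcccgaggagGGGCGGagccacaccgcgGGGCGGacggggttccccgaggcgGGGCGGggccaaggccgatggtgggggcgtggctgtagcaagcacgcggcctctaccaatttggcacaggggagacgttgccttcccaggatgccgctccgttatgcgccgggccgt
Nfe2l2: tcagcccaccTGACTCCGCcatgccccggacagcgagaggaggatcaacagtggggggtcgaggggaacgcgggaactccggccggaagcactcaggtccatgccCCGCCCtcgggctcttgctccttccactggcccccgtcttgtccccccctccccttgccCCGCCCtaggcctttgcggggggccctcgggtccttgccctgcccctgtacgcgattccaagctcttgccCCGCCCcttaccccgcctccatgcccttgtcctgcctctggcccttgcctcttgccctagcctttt
Ucp1: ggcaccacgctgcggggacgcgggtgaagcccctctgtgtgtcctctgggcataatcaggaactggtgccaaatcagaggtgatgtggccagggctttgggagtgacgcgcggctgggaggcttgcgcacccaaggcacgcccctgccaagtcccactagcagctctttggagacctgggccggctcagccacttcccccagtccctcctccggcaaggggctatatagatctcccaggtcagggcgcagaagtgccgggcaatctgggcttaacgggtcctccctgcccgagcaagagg
Ucp2: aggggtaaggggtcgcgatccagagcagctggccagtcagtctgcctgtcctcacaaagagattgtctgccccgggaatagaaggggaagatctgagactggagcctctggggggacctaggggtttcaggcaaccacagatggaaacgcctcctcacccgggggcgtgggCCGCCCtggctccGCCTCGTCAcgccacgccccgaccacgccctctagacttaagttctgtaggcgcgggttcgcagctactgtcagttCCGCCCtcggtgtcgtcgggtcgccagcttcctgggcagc

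The antioxidant response element core was found in 3 of the 10 promoters, against 12.4% of the 32851 promoters in the table. The matches lay from -56 to -48 at Sod1 and from -66 to -58 at Ucp2, both on the reverse strand, and from -240 to -232 at Nfe2l2 on the forward strand, with the start as 0 and negative positions before it. GC boxes were found in 7 of the 10 promoters, against 35.7% of all, and the 4 at Sod1 formed 2 pairs that overlap each other. No match overlapped a match of the other motif. The estrogen-related receptor core AAGGTCA and the cAMP response element TGACGTCA were in 0 of the 10 and in 4.72% and 1.79% of all promoters. The GC content of the 10 windows ranged from 47.0% at Gpx1 to 68.7% at Nfe2l2, against a median of 52.7% over the table. Such matches describe letters in these windows and do not show binding.

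All 10 regions held more intervals, and more bases under them, after EnPGC-1 than after DMSO. Joined where Ucp2 and Ucp3 overlap, the regions spanned 491 kb and held 117 EnPGC-1 intervals and 40 DMSO intervals, which covered 18.7% and 5.05% of the bases. The ratio of covered bases was 3.69, and over the whole lists, with 253423 EnPGC-1 and 81522 DMSO intervals, it was 4.00. Every gene had at least 2 times as many covered bases in the EnPGC-1 list, as had 86.6% of all protein-coding genes (those with EnPGC-1 bases only included), and 7 of 10 had at least 4 times as many, as had 49.0% of all. Such ratios were thus common over all genes, as the EnPGC-1 list was longer. All 10 members had DMSO bases, whereas 4083 of the 21627 protein-coding genes had none, so these shares cover a somewhat unlike set. Over the 10 genes the median ratio was 4.69, against 3.71 over the 17544 protein-coding genes with DMSO bases. When the EnPGC-1 list was reduced to its 81522 highest-scoring intervals, so that both lists were equal in number, 3 of 10 genes, Sod2, Nfe2l2 and Ucp1, had a ratio of at least 2, as had 34.4% of all genes. Sod1 then had 516 covered bases after EnPGC-1 and 716 after DMSO, a difference of -200, and 23.3% of all genes had more DMSO bases. With a flank of 5 kb instead of 20 kb, the ratio was below 2 at Sod1 (1.54), Gpx1 (1.39) and Gpx4 (1.74).

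**Figure D1:**
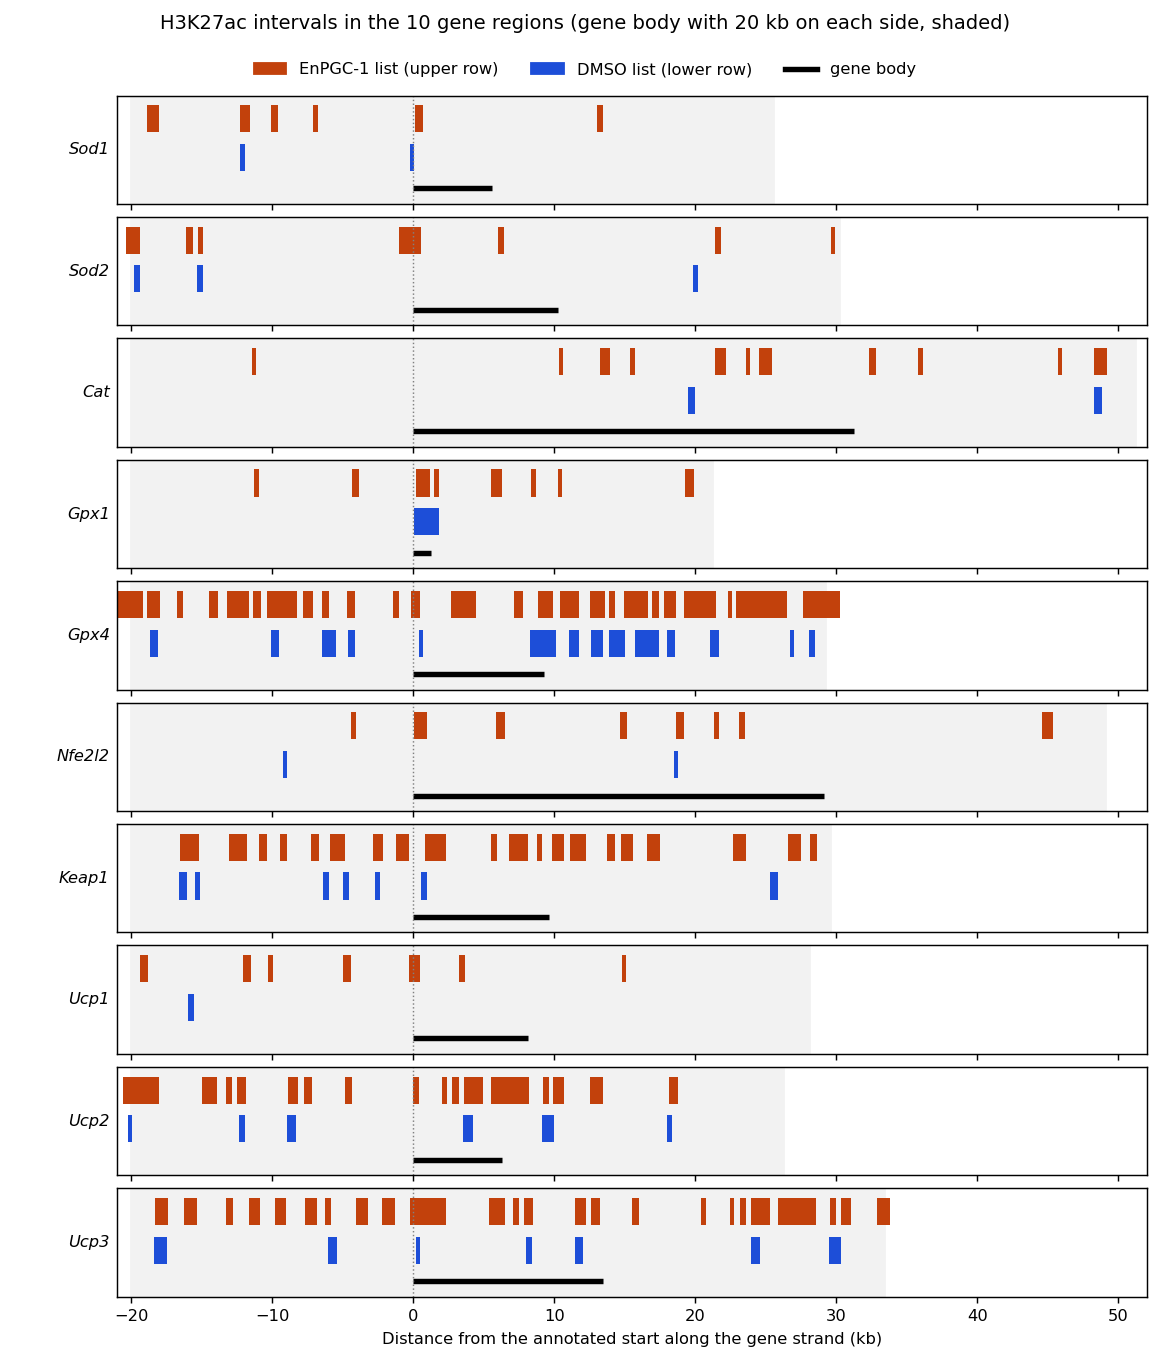
Map of the 10 gene regions, with distance from the annotated start along the gene strand in kb on the horizontal axis, EnPGC-1 intervals in the upper row and DMSO intervals in the lower row of each panel, the gene body as a black line and the region in grey. Gpx4, Keap1, Ucp2 and Ucp3 hold 16 to 25 EnPGC-1 intervals each, and the other 6 genes hold 6 to 11.

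Sod1 and Sod2 encode the copper-zinc superoxide dismutase of the cytosol and the manganese superoxide dismutase of the mitochondrial matrix. The Sod1 gene, chr16:90220762-90226333, had 6 EnPGC-1 intervals covering 3378 bases of its region and 2 DMSO intervals covering 716 bases, a ratio of 4.72. Both lists had an interval at its start, but at different places. The EnPGC-1 interval ran from 154 to 679, inside the gene, and the DMSO interval from -252 to 89, across the start. They shared 0 bases, whereas among the 4924 protein-coding genes with start-site intervals in both lists 91.4% had bases in common there. The DMSO interval at Sod1 had a score of 1.36 where the lowest score of its list was 1.31.

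The Sod2 gene, chr17:13007839-13018119, had 7 EnPGC-1 intervals covering 4352 bases and 3 DMSO intervals covering 1118, a ratio of 3.89. Its start lay in an EnPGC-1 interval of 1551 bp with 3 summits, chr17:13006827-13008377, which reached from -1012 to 538. The DMSO list had no interval inside the gene, and its nearest lay 14934 bases before the start, at the start of the neighbouring gene Wtap. A further EnPGC-1 interval lay inside Sod2, from 5988 to 6455, and overlapped no DMSO interval.

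Cat, the gene of the peroxisomal enzyme catalase, was the only member with no start-site interval in either list. The gene, chr2:103453904-103485153, had 11 EnPGC-1 intervals covering 5889 bases and 2 DMSO intervals covering 1111, a ratio of 5.30. The nearest EnPGC-1 interval began 10330 bases after the start, and the nearest DMSO interval 19487 bases after it. In its body lay the highest-scoring EnPGC-1 interval of all 10 regions, chr2:103462942-103463761, at percentile 99.8 of its list, with a score of 10.7 and a place 21392 to 22211 bases after the start. It overlapped no DMSO interval. The 1 interval of the Cat region that both lists shared lay in the body of Elf5, beyond the far end of Cat.

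Gpx1, which encodes the widely expressed glutathione peroxidase of cytosol and mitochondria, had the lowest ratio of the 10, at 2.32. Its region held 8 EnPGC-1 intervals covering 4189 bases and 1 DMSO interval covering 1808. That DMSO interval, chr9:108339106-108340913, was the second widest DMSO interval of the regions and covered 97.9% of the gene, chr9:108339080-108340342, where EnPGC-1 intervals covered 81.4%. In the EnPGC-1 list the same stretch held 2 intervals, from 184 to 1211 and from 1500 to 1815, both wholly inside the DMSO interval. Within 1 kb of the start, 817 bases were covered after EnPGC-1 and 975 after DMSO, the only start of the 10 with more bases in the DMSO list. The other 6 EnPGC-1 intervals of the region overlapped no DMSO interval, and 5 of them lay in the bodies of the neighbours Rhoa and Usp4.

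Gpx4, whose enzyme reduces lipid peroxides in membranes and protects cells from ferroptosis, had the most densely covered region in both lists. It held 25 EnPGC-1 intervals covering 54.8% of the region and 14 DMSO intervals covering 22.6%, at percentiles 99.4 and 99.9 of all protein-coding genes, and the ratio was 2.43. All but 1 of the 14 had bases in common with the EnPGC-1 list. The gene, chr10:80047166-80056439, stands in a gene-dense stretch with 32 other protein-coding genes within 250 kb, and Sbno2 lies 552 bases beyond it. Coverage was highest on that side, at 71.5% after EnPGC-1 and 35.9% after DMSO over the 20 kb after the gene. At its outermost annotated start an EnPGC-1 interval ran from -131 to 518 with a score of 1.34, near the bottom of its list, and a DMSO interval ran from 380 to 688. RefSeq also places 3 starts 6399 to 6845 bases further in, where promoter windows had 26 to 31 CpGs against 3 at the outermost start. At each of these an interval lay within 1 kb in the EnPGC-1 list, from 7129 to 7751, and none in the DMSO list.

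Nfe2l2, the NRF2 gene, was sparsely covered, and its start was listed in EnPGC-1-treated cells alone. The gene, chr2:75675513-75704663 on the minus strand, had 8 EnPGC-1 intervals covering 6.44% of its region and 2 DMSO intervals covering 0.882%. The ratio of 7.30 was the second highest of the 10 and rests on 610 DMSO bases. An EnPGC-1 interval of 897 bp ran from 79 to 975. The nearest DMSO interval lay 8934 bases before the start. The highest-scoring EnPGC-1 intervals of the region, with scores of 6.40 and 6.04, lay before the gene, from -4396 to -4046, and in its body, from 14629 to 15136, and neither overlapped a DMSO interval.

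Keap1, which encodes the adaptor that marks NRF2 for degradation, was covered several times as densely as Nfe2l2. The gene, chr9:21229730-21239332 on the minus strand, had 20 EnPGC-1 intervals covering 34.9% of its region and 7 DMSO intervals covering 6.27%, a ratio of 5.56. A pair of EnPGC-1 intervals flanked its start, from -1234 to -285 and from 810 to 2300, with scores of 6.73 and 5.36. The DMSO interval there ran from 566 to 955, shared 146 bases with the second of them, and had a score of 1.31, the lowest of the DMSO intervals in the 10 regions. EnPGC-1 intervals were spread over the gene, with 37.3% of the body, 34.8% of the 20 kb before it and 33.8% of the 20 kb after it covered. The same shares in the DMSO list were 4.06%, 10.8% and 2.79%. Beyond the region, out to 250 kb on each side, 27.1% was covered after EnPGC-1 and 8.11% after DMSO. Around Nfe2l2 these shares were 3.98% and 0.954%, so the stretch around Keap1 was the denser as well.

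Ucp1, best known from brown fat, had the highest ratio of the 10, at 8.10, which rests on 1 DMSO interval of 452 bases. Its region held 7 EnPGC-1 intervals covering 7.61% of the bases, and the DMSO interval covered 0.940%. An EnPGC-1 interval of 819 bp, chr8:83290028-83290846, crossed the start of the gene, chr8:83290348-83298456, from -320 to 498. It had a score of 4.21, at percentile 65.5 of its list. The only DMSO interval lay 15510 bases before the start, and none of the 8 intervals overlapped an interval of the other list. Of 4 further brown fat markers, Cidea, Elovl3, Ppargc1a and Dio2, the first 3 had DMSO bases in their regions. So had 17544 of the 21627 protein-coding genes. Dio2 had 1 EnPGC-1 interval of 332 covered bases. The median ratio over the 3 was 3.19, beside 3.71 over all protein-coding genes with DMSO bases. Of the 2 markers with a known strand, Ppargc1a and Dio2, 0 had a start-site interval in either list. Over all genes the shares with one were 66.1% after EnPGC-1 and 31.7% after DMSO.

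Ucp2, the uncoupling protein gene most expressed in lymphoid tissue, and Ucp3, known from skeletal muscle, lie 6904 bases apart and share part of their regions. Ucp2, chr7:100493337-100499629, had 16 EnPGC-1 intervals covering 30.2% and 6 DMSO intervals covering 6.49%. Ucp3, chr7:100472991-100486432, had 24 EnPGC-1 intervals covering 38.1% and 7 DMSO intervals covering 8.30%. The ratio was 4.66 at Ucp2 and 4.60 at Ucp3. Each DMSO interval here had bases in common with the EnPGC-1 list. At the start of Ucp2 an EnPGC-1 interval ran from 14 to 429, and the nearest DMSO interval began 3560 bases after the start, where it shared 641 bases with an EnPGC-1 interval of 1350 bp. Around the start of Ucp3 an EnPGC-1 interval of 2558 bp ran from -219 to 2338 and enclosed a DMSO interval from 168 to 458. The widest interval of either gene, 2670 bp with 5 summits from 5526 to 8195 after the start of Ucp2, spanned the end of the gene and overlapped no DMSO interval.

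By start site, 9 of the 10 genes had an EnPGC-1 interval within 1 kb of the start and 5 had a DMSO interval. Over the 17273 protein-coding genes with a known strand the shares were 66.1% and 31.7%. The 4 genes listed in the EnPGC-1 list alone were Sod2, Nfe2l2, Ucp1 and Ucp2, beside 37.6% of all genes, and 0 of 10 were in the DMSO list alone, beside 3.21%. Sod1, Gpx1, Gpx4, Keap1 and Ucp3 were in both. With both lists equal in number, 5 of 10 genes had an EnPGC-1 interval at the start and 28.4% of all genes did. Sod2 and Nfe2l2 were then still in the EnPGC-1 list alone, beside 14.7% of all genes, Sod1 and Gpx4 were in the DMSO list alone, beside 18.0% of all genes, and Ucp1, Ucp2 and Cat were in neither. Gpx4 was classed here by its outermost start. The EnPGC-1 interval within 1 kb of its inner starts had a score of 4.71, above the lowest score kept, and no DMSO interval lay there. The start interval of Ucp1 had a score of 4.21, which is also the lowest score kept, and it was left out because wider intervals were kept first among those tied at that score. In the 500 bases after the start, 70.0% of the members' bases were covered after EnPGC-1 and 19.5% after DMSO, against 40.4% and 13.6% over all genes. In the 500 bases before the start, the members were at 27.7% after EnPGC-1 and 5.04% after DMSO. All genes were there at 26.7% and 8.98%, so the members did not stand above them on both sides of the start.

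**Figure D2:**
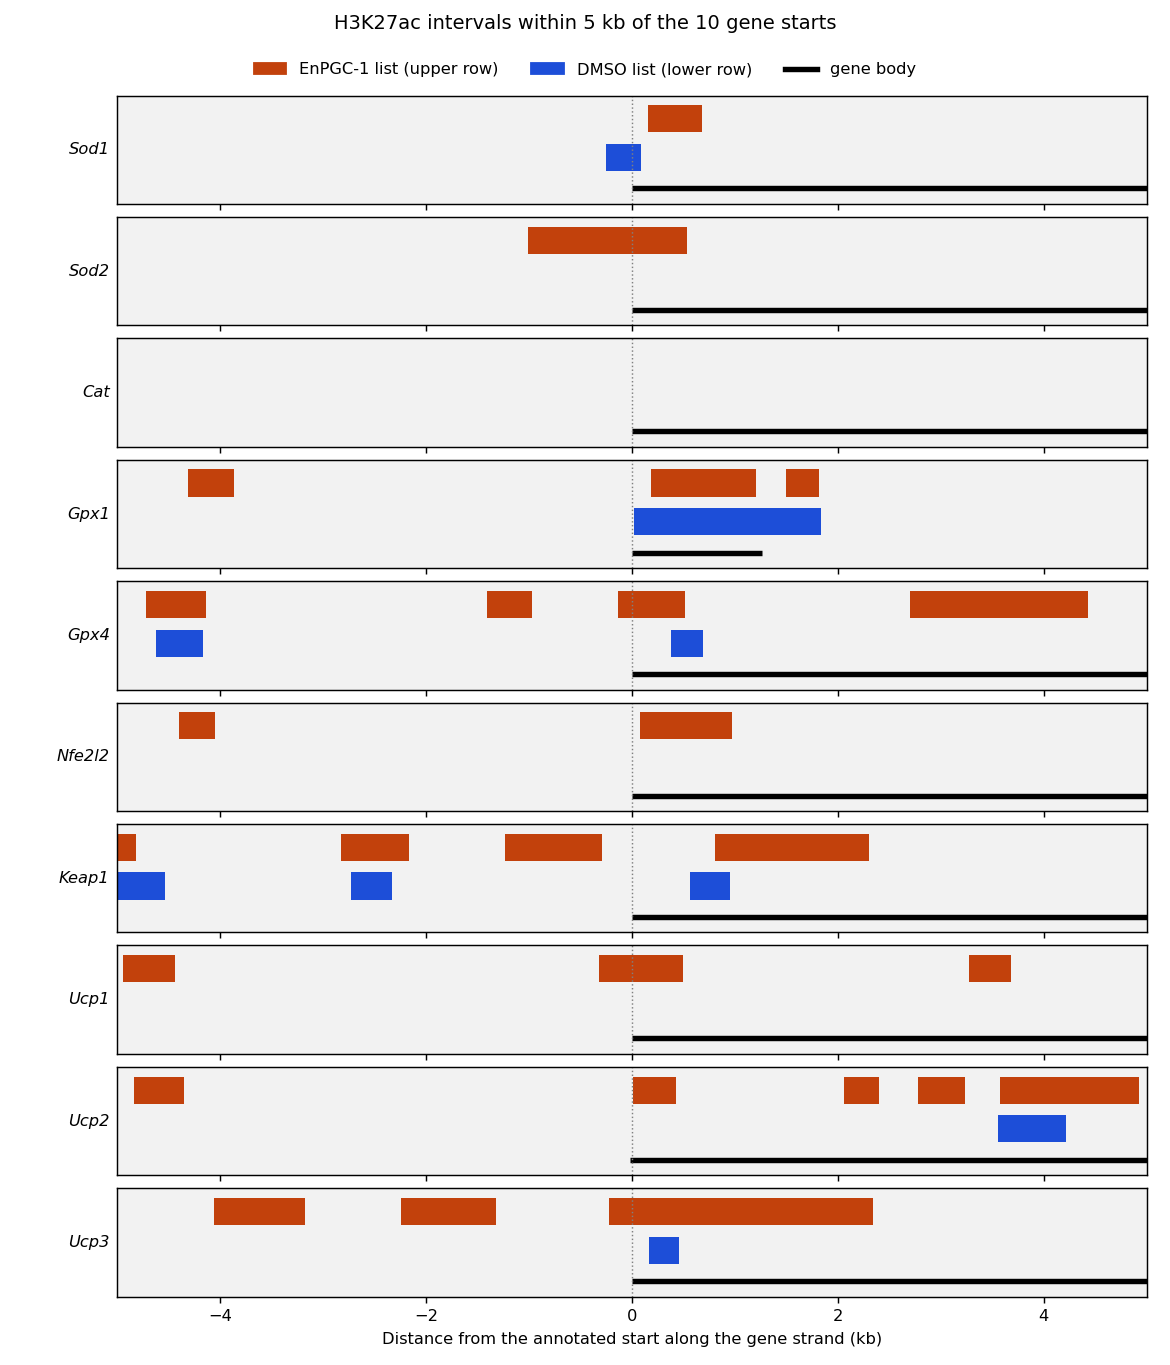
Map of 5 kb on each side of the 10 starts, with distance from the annotated start along the gene strand in kb on the horizontal axis, EnPGC-1 intervals in the upper row and DMSO intervals in the lower row of each panel, and the gene body as a black line. At Sod1 the intervals of both lists lie side by side, at Gpx1 the DMSO interval encloses 2 EnPGC-1 intervals, and at Cat both rows are empty.

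The regions of Gpx4, Ucp2 and Ucp3 stood above their surroundings in both lists, and those of Sod1, Sod2, Cat and Gpx1 stood below. Surroundings were the bases out to 250 kb on each side beyond the region. At Ucp3 the EnPGC-1 list covered 38.1% of the region and 5.93% of the surroundings, and the DMSO list 8.30% and 1.42%. At Ucp2 the surroundings, which include part of the Ucp3 region, were covered to 7.19% after EnPGC-1 and 1.73% after DMSO. At Gpx4 the surroundings were themselves dense, at 51.5% after EnPGC-1 and 15.0% after DMSO. At Gpx1 they were at 23.2% and 5.45%, above the 10.2% and 4.38% of its region. At Sod1 they were at 16.5% and 4.78%, above the 7.41% and 1.57% of its region. In all, 6 of 10 regions were covered more than their surroundings in the EnPGC-1 list and 3 of 10, Gpx4, Ucp2 and Ucp3, in the DMSO list. The ratio of the lists was higher in the region than around it at 8 of 10 genes, all except Gpx1 and Gpx4. Surroundings were not measured for all protein-coding genes, so these counts are not read as particular to the members.

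**Figure D3:**
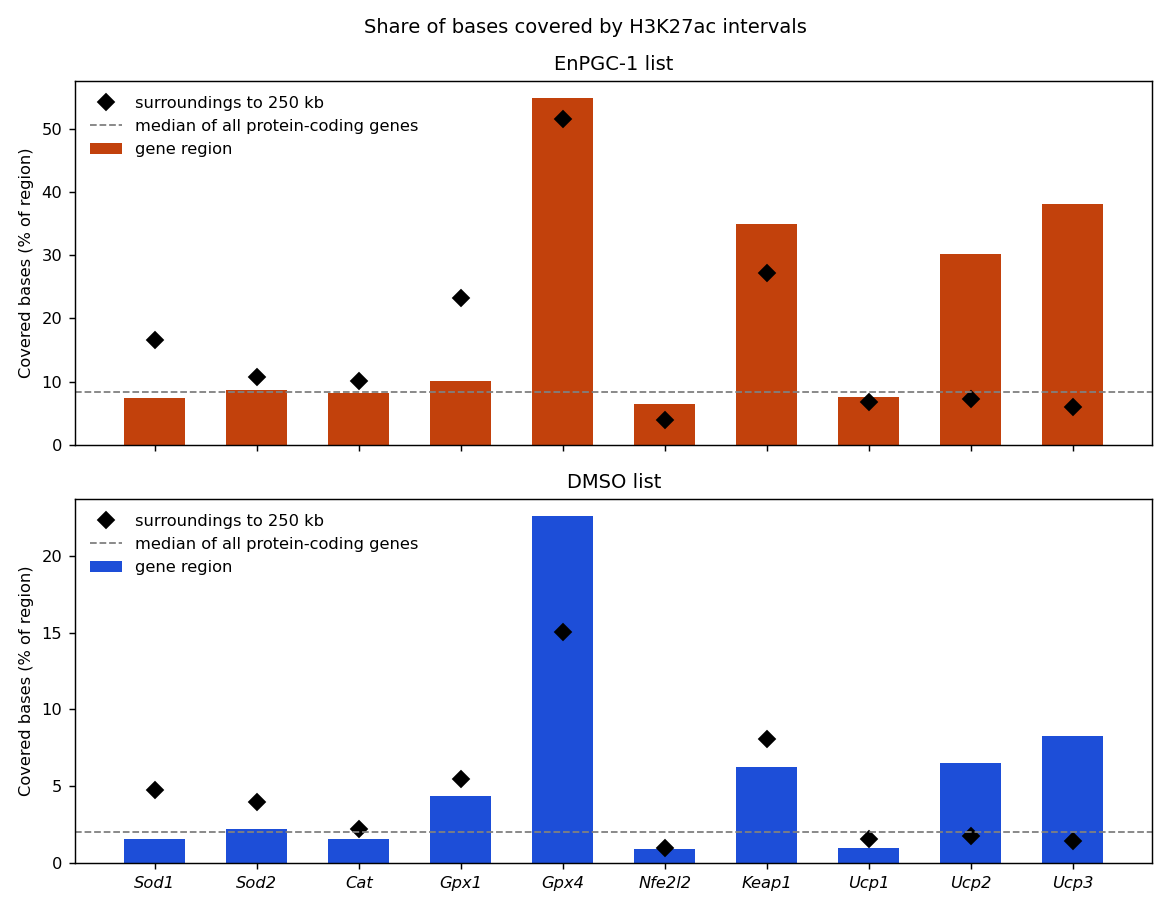
Covered bases as a percentage of each region (bars) in the EnPGC-1 list (upper panel) and the DMSO list (lower panel, on its own scale), with the surroundings out to 250 kb as diamonds and the median of all protein-coding genes, 8.37% and 1.99%, as a dashed line. Gpx4 reaches 54.8% and 22.6%, and Ucp2 and Ucp3 stand far above their diamonds in both panels.

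By covered share, the order in the EnPGC-1 list was Gpx4, Ucp3, Keap1, Ucp2, Gpx1, Sod2, Cat, Ucp1, Sod1 and Nfe2l2, and in the DMSO list Gpx4, Ucp3, Ucp2, Keap1, Gpx1, Sod2, Sod1, Cat, Ucp1 and Nfe2l2. With 1 list per treatment, the error of neighbouring places in these orders is unknown. Counted without the overlap of Ucp2 and Ucp3, 39 of the 117 EnPGC-1 intervals and 11 of the 40 DMSO intervals touched a member gene or its start window. Another 46 and 19 lay on neighbouring protein-coding genes or their starts alone, and 32 and 10 lay outside both. Of the DMSO intervals, 32 of 40 shared 1 bp or more with an EnPGC-1 interval (80.0%, exact 95% interval 64.4 to 90.9), against 73.7% of the whole list. Of the EnPGC-1 intervals, 35 of 117 overlapped a DMSO interval (29.9%, 21.8 to 39.1), against 23.1% of the whole list. The Gpx4 region alone gave 13 of these 32 DMSO intervals and 15 of these 35 EnPGC-1 intervals, so both shares lean on 1 dense region. The exact 95% intervals cover counting error only and treat neighbouring peaks as independent.

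**Figure D4:**
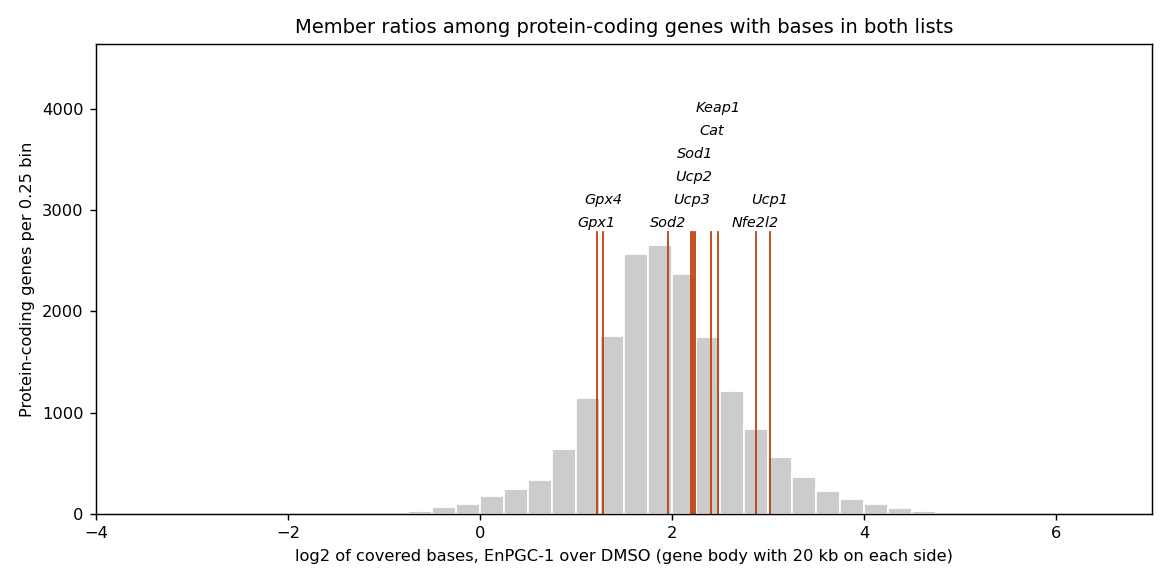
Distribution of the log2 ratio of covered bases, EnPGC-1 over DMSO, over the 17455 protein-coding genes with bases in both lists (grey bars, genes per bin), with the 10 members as lines. Gpx1 and Gpx4 lie at percentiles 15.0 and 17.3, and Nfe2l2 and Ucp1 at 88.9 and 91.6, of the 17544 genes with DMSO bases.

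Member intervals lay near the middle of each list by score. The score, given by the authors' peak caller and taken to be a −log10 q-value, ranks peaks within 1 list. Among the members it ran from 1.31 to 10.7 in the EnPGC-1 list, whose maximum was 541, and from 1.31 to 3.77 in the DMSO list, whose maximum was 179. The median member interval stood at percentile 53.9 of the EnPGC-1 list and 55.3 of the DMSO list. After the interval in Cat, the highest EnPGC-1 scores were 7.35 at the start of Polr2e and 6.78 between Arhgap45 and Polr2e, both beside Gpx4. The highest DMSO score, 3.77, was in the Gpx4 region, and 3 intervals tied at 3.50, of which 2 were in the Gpx4 region and 1 was the interval in Elf5 near Cat. These 4 lay outside the member genes and overlapped EnPGC-1 intervals. The median width of member intervals was 631 bp after EnPGC-1 and 485.5 bp after DMSO, and more than 1 summit was found in 31.6% of the EnPGC-1 and 7.50% of the DMSO intervals. Over the whole lists the median widths were 499 bp and 431 bp, and the shares with more than 1 summit were 20.7% and 3.42%.

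Of 65 related genes for peroxiredoxins, thioredoxins, glutathione, NADPH supply, NRF2 regulation and uncoupling relatives, 55 of the 58 with DMSO bases had a ratio of covered bases of at least 2, and the other 7 had EnPGC-1 bases only. The exceptions were Gpx8, Me1 and Slc25a5, named after their values were seen, with ratios of 1.62, 1.43 and 1.96. The median ratio over the 58 was 3.36, beside 3.71 over all protein-coding genes with DMSO bases. With genes of EnPGC-1 bases only included, 62 of the 65 had at least 2 times as many covered bases, beside 86.6% of all protein-coding genes. Of the 54 with a known strand, 37 had a start-site interval after EnPGC-1 and 17 after DMSO, beside 66.1% and 31.7% of all genes. In 21 it was listed only after EnPGC-1 and in 1 only after DMSO, beside 37.6% and 3.21%, so the counts lie near those over all genes. That gene was Rbx1, which encodes the RING subunit of the ligase that KEAP1 serves, with 0 covered bases at the start after EnPGC-1 and 618 after DMSO. With equal numbers of intervals, 16 starts held an interval after EnPGC-1 and 17 after DMSO, and 9 of the EnPGC-1 and 10 of the DMSO starts were in that list alone. Over all genes the shares were then 28.4% and 31.7%, with 14.7% and 18.0% in that list alone.

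The groups below are read against the same 66.1% and 31.7%, and with equal numbers of intervals against 28.4% and 31.7%. Glutathione genes had 8 of 12 starts after EnPGC-1 and 0 of 12 after DMSO, and peroxiredoxin and thioredoxin genes 13 of 16 and 7 of 16. NRF2 regulators had 6 of 11 and 5 of 11, NADPH genes 4 of 5 and 3 of 5, uncoupling relatives 4 of 4 and 2 of 4, and the remaining enzymes 2 of 6 and 0 of 6. With equal numbers of intervals, glutathione genes had 3 of 12 and 0 of 12, peroxiredoxin and thioredoxin genes 8 of 16 and 7 of 16, and the remaining enzymes 0 of 6 and 0 of 6. The order turned round in NADPH genes, with 0 of 5 and 3 of 5, in NRF2 regulators, with 4 of 11 and 5 of 11, and in uncoupling relatives, with 1 of 4 and 2 of 4. It turned round over all genes too, at 28.4% and 31.7%. The largest differences in covered share were at Mafk, with 50.9% after EnPGC-1 and 16.3% after DMSO, and at Dpp3, with 34.4% and 6.41%. They were followed by Maff, with 38.8% and 11.4%, and Pgd, with 32.5% and 5.46%. Mafk and Maff encode small MAF partners of NRF2, DPP3 binds KEAP1, and PGD makes NADPH. The smallest differences were at Prdx4, an endoplasmic reticulum peroxiredoxin, with 1.94% and 0.900%, and at Cul3, the ligase scaffold for KEAP1, with 0.273% and 0 covered bases. No gene of the list had more covered bases in the DMSO list, and only 326 of the 21627 protein-coding genes had.

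The labelled cell type was set beside marker genes. All 10 CD8 T cell markers held intervals in both lists within 20 kb, as did 17455 of the 21627 protein-coding genes. The median covered share of these markers was 14.5% after EnPGC-1 and 2.93% after DMSO, beside 8.37% and 1.99% over all genes. Of 8 with a known strand, 7 had a start-site interval in the EnPGC-1 list and 2, Cd3e and Lat, in the DMSO list, beside 66.1% and 31.7% of all genes. Cd3d had none in either list, and the starts of Cd8b1 and Cd2 were not analysed here for want of a strand. Markers of other blood cells were covered too. The 3 CD4 and Treg markers Cd4, Foxp3 and Zbtb7b had a median of 20.3% after EnPGC-1 and 3.71% after DMSO, above the CD8 markers in both lists. Both of those with a known strand had a start-site interval after EnPGC-1, and 1, Zbtb7b, after DMSO. The peak lists thus do not set the labelled cells apart from these types. The 5 B cell markers had a median of 27.9% after EnPGC-1 and 4.43% after DMSO, and the 5 myeloid markers 8.98% and 3.71%, with Itgam and Ms4a1 at 0 DMSO bases. Of the B cell markers with a known strand, 2 of 2 had a start-site interval after EnPGC-1 and 1 of 2 after DMSO. Of the myeloid markers, 0 of 2 had one in either list. The part of other cells in the results at the 10 genes was not tested.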

How the data were processed

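H3K27ac ChIP-seq of EnPGC-1-treated and DMSO-treated CD8+ T cells was used as 1 deposited peak list per treatment, in mm10 coordinates. The submitters' processing notes name the aligner Bowtie 1.1.2, the peak caller MACS2 2.2.2.20160309, the read trimmer Trimmomatic 0.38, Picard 0.118 and the annotation package ChIPseeker 11.16.1. The sources used here do not give calling parameters, the control, pooling of replicates or depth. The score column deposited by the authors is taken to hold −log10 q-values because its lowest values, 1.31 in both lists, lie near the 1.30 of a q-value of 0.05. Entries with the same coordinates were read as summits of 1 peak and merged into an interval with the highest of their scores. For each protein-coding gene of RefSeq GRCm38.p6, covered bases were summed over the gene body with 20 kb on each side, and a start-site interval was an interval within 1 kb of the outermost start. The ratio is EnPGC-1 over DMSO covered bases, and an overlap needs 1 bp. A region called in 1 list more than in the other can reflect depth as well as acetylation. Shares carry exact (Clopper-Pearson) 95% intervals. Computation used Python 3.11.15, numpy 2.4.6, pandas 2.3.3 and scipy 1.17.1, and was tested on simulated intervals. No test between treatments was possible.

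The members and the gene lists were chosen with earlier results of these data known. Named genes are the 10 members, the 3 highest-scoring intervals of each list, neighbours inside a region, and from the 65 related genes the 4 with the largest and the 2 with the smallest difference in covered share plus each gene with a start-site interval in the DMSO list alone. Alternatives changed the score limit, the number of intervals, joining, width, flank, start window and overlap.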

Additional observations from a re-analysis of the deposited data

How the results depend on the processing

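With equal numbers of intervals, 3 genes had a ratio of at least 2, the regions held 39 EnPGC-1 intervals, the ratio of covered bases was 1.43, 27.5% of DMSO intervals overlapped an EnPGC-1 interval, 5 genes had an EnPGC-1 start-site interval and 2 had one in the EnPGC-1 list alone. At this setting 34.4% of all genes had a ratio of at least 2. An EnPGC-1 start-site interval was found at 28.4%, and at 14.7% in the EnPGC-1 list alone. The construction of this alternative, which removes the lower-scoring EnPGC-1 intervals, accounts for the fewer intervals. The difference at Sod1 was then -200 bases, and 23.3% of all genes had more DMSO bases. Of 70 differences of the 10 genes under the alternatives, 69 were positive and 1 negative. With each list limited to scores at or above its own median, there were 63 EnPGC-1 intervals, an overlap of 63.0% and 3 genes with a DMSO start-site interval. Without intervals under 500 bp, there were 77 EnPGC-1 and 20 DMSO intervals, 1 gene with a DMSO start-site interval and 7 with one in the EnPGC-1 list alone. The ratio was at least 2, genes with EnPGC-1 bases only included, at 9 genes with each list limited to scores at or above its own median and at 9 without intervals under 500 bp, with Gpx1 lost in both, at 1.27 and 1.33. It was at least 2 at 7 genes with a flank of 5 kb, and at 8 with 10 kb, where Gpx1 had 1.76 and Gpx4 1.54. A flank of 5 kb gave 60 EnPGC-1 and 18 DMSO intervals, one of 10 kb gave 26 DMSO intervals, and one of 50 kb gave 241 EnPGC-1 and 90 DMSO intervals. Requiring 50% of both intervals gave an overlap of 40.0%. At the 3′ gene end, an alternative chosen after seeing the data, 5 genes had an EnPGC-1 interval and 2 a DMSO interval. No paired analysis was possible because each treatment has 1 peak list, and for that reason no replicate could be left out. Depth is unknown, so places absent from the DMSO list may be below its detection. For the overlaps and the other alternatives given here, shares over all genes or the whole lists were not computed. Their shifts are therefore not read as particular to the 10 genes.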
